A study of Mus musculus with 11 samples.

Results

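The endoplasmic reticulum (ER) stress genes described here are 10 mouse genes, Ern1, Atf6, Xbp1, Atf4, Ddit3, Calr, Canx, Pdia3, Pdia6 and Herpud1, taken by symbol from the 24421 genes counted in every library. They were measured by RNA sequencing of bulk hippocampus from offspring of mothers given particulate matter (PM) by the nose at 200 µg per kg, or normal saline (vehicle), during pregnancy. Both groups had mothers dosed at gestational days 9, 12 and 15 and delivered at day 21, and both were sampled at 14 to 18 weeks of age. There were 6 PM and 5 vehicle libraries. They came in 2 deposit sets, the second with PM replicates 4 to 6 and vehicle replicates 4 and 5, the first with PM replicates 1 to 3 and vehicle replicates 1 to 3. The labels give no strain or sex, and do not tie a library to an animal or a litter. The p-values therefore speak of the spread among these libraries only, some of which may be technical. Within a group and set, the counts of vehicle libraries 1 and 3 were the closest pair, at a chi-square per degree of freedom of 2.01. Vehicle libraries 4 and 5 were at 3.24, the other vehicle pairs at 12.6 and 12.9, and the PM pairs between 11.1 and 43.0. Whether the close libraries share an animal or a litter was not tested.

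The unfolded protein response is how a cell reacts when unfolded proteins build up in the ER. Its 3 sensors in the ER membrane are PERK, IRE1 and ATF6: PERK slows translation and thereby favours translation of ATF4, which can induce CHOP, IRE1 cuts an intron out of the Xbp1 mRNA, and ATF6 is cleaved in the Golgi into a transcription factor. These factors raise the genes for chaperones, disulfide isomerases and the machinery of ER-associated degradation. In neurons, receptor subunits and ion channels mature through the ER, where the lectin chaperones and disulfide isomerases assist them. Gene counts measure neither Xbp1 splicing, nor ATF6 cleavage, nor phosphorylation of the translation factor eIF2α.

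The sequence on which IRE1 acts lies in Xbp1 at chr11:5524259-5524324 of GRCm38, plus strand, and is shown because a gene count adds reads of the spliced and the unspliced mRNA together. Capitals mark the 26 bases that IRE1 removes, located by a script in the transcript of GENCODE.

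Xbp1: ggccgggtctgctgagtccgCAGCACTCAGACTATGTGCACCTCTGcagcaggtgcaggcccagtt

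With those bases in place the longest reading frame held 267 codons, and without them it held 371.

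The ER stress response element, searched on both strands as CCAAT and CCACG with any 9 bases between them, is the site through which ATF6 with NF-Y induces chaperone genes, and ERSE-II, searched as ATTGG and CCACG with any 1 base between them, is a related site. Promoter windows from RefSeq (GRCm38.p6), reaching from 250 bases before to 50 after each gene start, were at hand for 9 of the 10 genes, with no entry for Atf6. The first motif was in 3 of the 9, Calr, Canx and Pdia6, and in 0.12% of all 32544 windows. The second was in 1 of the 9, Herpud1, and in 0.0369% of all windows. They are printed because these 4 genes have the same kind of site and are compared below. Capitals mark the motif, which in Calr reads on the reverse strand.

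Calr: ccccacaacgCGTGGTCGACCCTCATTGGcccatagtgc
Canx: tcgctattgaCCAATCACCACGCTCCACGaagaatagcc
Pdia6: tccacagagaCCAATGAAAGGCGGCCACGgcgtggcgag
Herpud1: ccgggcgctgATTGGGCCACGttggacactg

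The stretches are at chr8:84847065-84847103 (minus strand) for Calr, chr11:50325790-50325828 (minus) for Canx, chr12:17266481-17266519 (plus) for Pdia6 and chr8:94386367-94386397 (plus) for Herpud1. A match to these letters is a description of the window and not a measured binding site. The XBP1 core TGACGTGG was in 0 of the 9 windows and in 0.682% of all windows. The amino acid response core TGATGNAA, read by ATF4 dimers, was in 1 of the 9, Herpud1, and in 3.91% of all windows.

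Libraries held between 10938521 and 17763893 gene counts in the PM group and between 6012116 and 12496651 in the vehicle group. Reads that overlapped no annotated feature made up 26.03% ± 6.46 of the total in PM libraries and 61.4% ± 0.461 in vehicle libraries (SD, n = 6 and 5). By set, that share averaged 31.7% in PM and 61.5% in vehicle of the second set, and 20.4% in PM and 61.3% in vehicle of the first. Hippocampal neuron markers, 12 genes, were detected in every library, with summed levels of 8494 to 9922 CPM (gene counts relative to library size, scaled by TMM) in PM libraries and 9070 to 10450 CPM in vehicle libraries. Rn45s, the ribosomal RNA precursor, took 9.97% of gene counts on average in PM libraries and 1.57% in vehicle libraries. Xist, expressed from the inactive X of females, was at 949 CPM in PM library 6, 187 CPM in PM library 3 and at most 16.0 CPM in the other PM libraries, against 2465 and 2279 CPM in vehicle libraries 4 and 5 and at most 3.17 CPM in vehicle libraries 1 to 3. The log2 fold change also followed transcript length: its median was 0.63 for the shortest of 5 length groups of genes and -0.86 for the longest. Each of the 10 genes is therefore also given with each library's trend on transcript length and GC content removed, and the part of these library differences in the results was not tested further.

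In PM hippocampus the genes did not move one way. By edgeR's quasi-likelihood test with deposit set as a covariate and an adjusted p (Benjamini-Hochberg over 14982 genes) under 0.05, 5 of the 10 were higher (Ddit3, Pdia6, Atf4, Pdia3 and Xbp1), 2 were lower (Ern1 and Atf6) and 3 did not pass (Calr, Herpud1 and Canx). All 10 passed the filter on low counts. Over all genes tested, 32.7% were higher and 36.4% lower, 69.1% in all, so that 7 called of 10 was near the background. The median log2 fold change of the 10 was 0.21, against -0.04 over all genes tested. Every PM library lay above every vehicle library for 3 of the 10 and below for 2, and the groups overlapped for 5, with 24.3% of all genes above and 28.1% below. In bulk tissue, fewer cells of a type and less RNA per cell cannot be told apart.

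**Figure D1:**
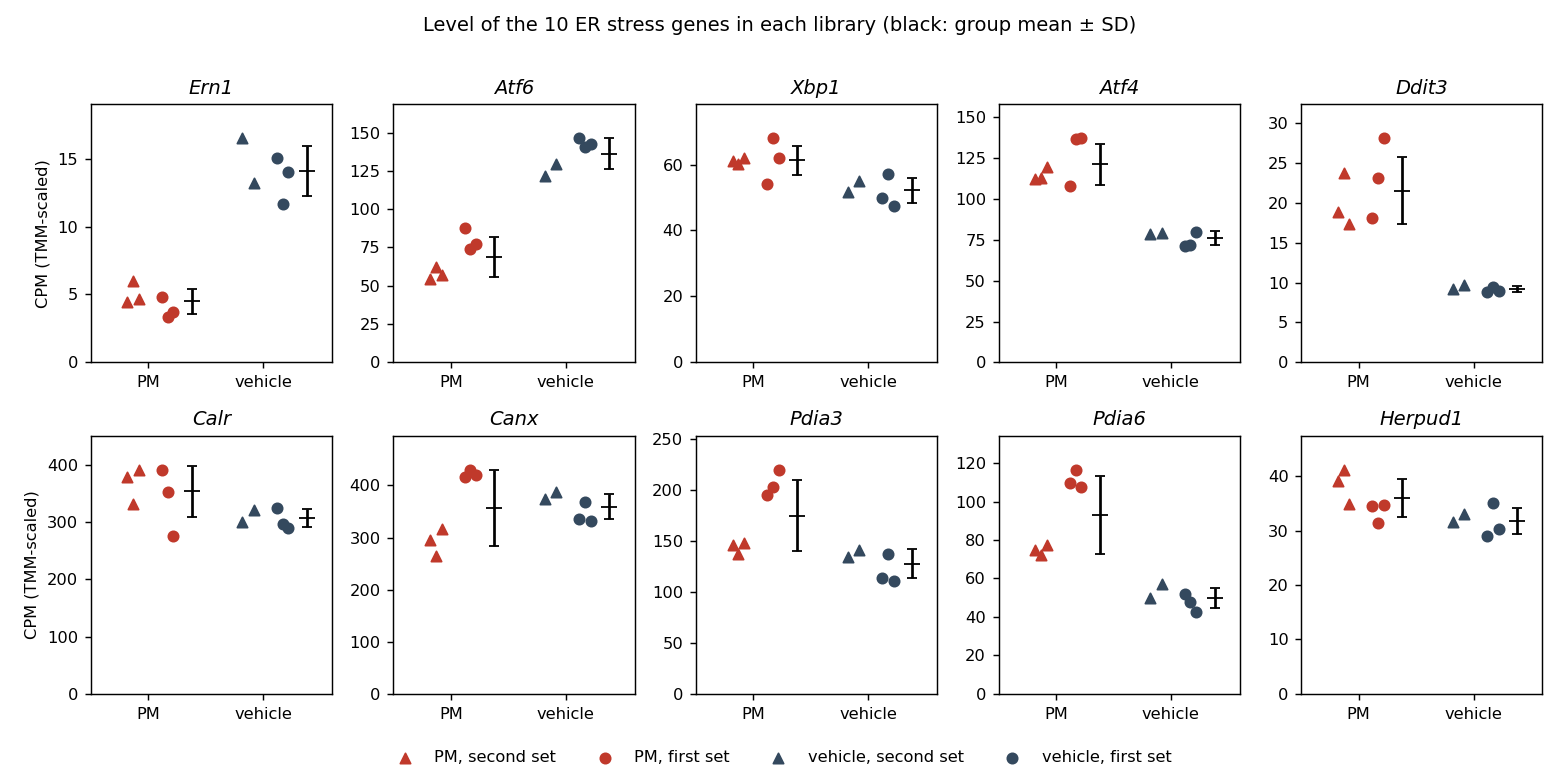
TMM-scaled CPM (linear axes from 0) of each of the 10 genes, PM left of vehicle; each point is 1 library, triangles are the second set and circles the first, and black bars are group mean ± SD. Ern1 and Atf6 lie lower in every PM library than in any vehicle library, Ddit3, Pdia6 and Atf4 lie higher, and the PM libraries of the second set lie below those of the first for Canx, Pdia3 and Pdia6.

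The sensors Ern1 and Atf6 were lower in PM offspring. Ern1, at chr11:106394650-106487852 (GRCm38, minus strand), encodes IRE1α, the ER membrane kinase and endoribonuclease. It ranged from 3.37 through a median of 4.57 to 5.97 CPM in the PM libraries, against 15.1, 11.7, 14.0, 16.5 and 13.2 CPM in vehicle libraries 1 to 5. The groups did not overlap, and the highest PM library lay well under the lowest vehicle library. The mean was 4.50 ± 0.913 CPM in PM and 14.1 ± 1.83 CPM in vehicle (SD), 3.19-fold lower, with a log2 fold change of -1.67 (SE 0.14, edgeR adjusted p = 2.09e-07). After removal of length and GC trends it was -1.04 (edgeR adjusted p = 8.60e-06), and among genes of its length group it stood at the 14.3 percentile, counted from the lowest fold change. Counts behind it were 52 to 82 per PM library and 101 to 190 per vehicle library.

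Atf6, at chr1:170704674-170867771 (minus), encodes the sensor that is released from the ER and cleaved. It ranged from 54.7 through a median of 68.1 to 87.5 CPM in PM, against 146, 140.5, 142, 122 and 130 CPM in vehicle libraries 1 to 5. Here too every PM library was below every vehicle library, and the 3 PM libraries of the second set were the lowest of all. The mean was 68.8 ± 12.8 CPM in PM and 136 ± 10.2 CPM in vehicle, 1.95-fold lower, with a log2 fold change of -0.96 (SE 0.08, edgeR adjusted p = 1.98e-07). After that removal it was -0.07 (edgeR adjusted p = 0.336), and the call was lost. Ern1 and Atf6 have the longest transcripts of the 10, at 6946 and 7246 bases.

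The transcription factors of the response were higher, by amounts that differed. Ddit3, at chr10:127290774-127296288 (plus), encodes CHOP, known for its role in ER-stress cell death. It ranged from 17.4 through 20.9 to 28.1 CPM in PM (lowest, median, highest), against 8.79, 9.41, 8.95, 9.15 and 9.67 CPM in vehicle libraries 1 to 5. The vehicle libraries lay within about 1 CPM of each other, whereas the PM libraries were spread more widely and all above them. The mean was 21.5 ± 4.17 CPM in PM and 9.20 ± 0.354 CPM in vehicle, 2.36-fold higher, with a log2 fold change of 1.24 (SE 0.13, edgeR adjusted p = 2.37e-06). The log2 fold change stayed called, at 0.48, with the length and GC trends removed (edgeR adjusted p = 0.00224).

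Atf4, at chr15:80255184-80257541 (plus), encodes the factor whose translation PERK favours. It ranged from 108 through 116.5 to 137 CPM in PM, against 71.3, 71.9, 79.8, 78.3 and 79.0 CPM in vehicle libraries 1 to 5. No PM library fell into the vehicle range. The mean was 121 ± 12.7 CPM in PM and 76.0 ± 4.13 CPM in vehicle, 1.6-fold higher, with a log2 fold change of 0.68 (SE 0.09, edgeR adjusted p = 1.11e-05). Removing the trends left 0.05 (edgeR adjusted p = 0.605), so the call was lost, and its fold change stood at the 51.9 percentile of its length group.

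Xbp1, at chr11:5520659-5525893 (plus), encodes the factor made from the mRNA that IRE1 splices. It ranged from 54.2 through 61.5 to 68.0 CPM in PM, against 49.9, 57.0, 47.5, 51.8 and 54.9 CPM in vehicle libraries 1 to 5. The groups overlapped through PM library 1, which lay below vehicle libraries 2 and 5. The mean was 61.2 ± 4.41 CPM in PM and 52.2 ± 3.81 CPM in vehicle, 1.17-fold higher, with a log2 fold change of 0.23 (SE 0.08, edgeR adjusted p = 0.0236). This call was lost on leaving out PM library 2 (edgeR adjusted p = 0.0737) or any of vehicle libraries 1, 3 and 4, and with the trends removed the direction turned, to -0.22 (edgeR adjusted p = 0.0269).

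The lectin chaperones Calr and Canx, which hold newly made glycoproteins in the ER until they fold, showed no call over all libraries. Calr, at chr8:84841850-84846934 (minus), encodes the soluble calreticulin, also a store for calcium. It ranged from 276 through 365 to 391 CPM in PM, against 325, 296, 289.6, 299.5 and 321 CPM in vehicle libraries 1 to 5. PM library 3 was the lowest of all libraries and the other PM libraries were all above every vehicle library. The log2 fold change was 0.20 (SE 0.09, edgeR adjusted p = 0.0784). Without PM library 3 it was 0.27 and passed (edgeR adjusted p = 0.00896), and without the 3 libraries with Ttr, a choroid plexus gene, over 1000 CPM, a choice made after seeing the data, it passed as well (edgeR adjusted p = 0.0317). The value with the trends removed was -0.03.

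Canx, at chr11:50293961-50325673 (minus), encodes calnexin, the membrane-bound partner. In the second set it measured 296, 264 and 316 CPM in PM libraries 4 to 6, against 373 and 387 CPM in vehicle libraries 4 and 5. In the first set it measured 416, 430.5 and 420.5 CPM in PM libraries 1 to 3, against 335, 369 and 332 CPM in vehicle libraries 1 to 3. The groups did not overlap within either set, and they stood in opposite order. The log2 fold change was -0.38 in the second set (edgeR adjusted p = 0.00324) and 0.29 in the first (edgeR adjusted p = 0.00870), and the difference, second minus first, was -0.67 (SE 0.13, edgeR adjusted p = 0.00183). Over both sets it was -0.01 (SE 0.12, edgeR adjusted p = 0.935), with means of 357 ± 73.5 CPM in PM and 359 ± 24.6 CPM in vehicle. Removing the trends gave 0.43 over both sets (edgeR adjusted p = 0.000141) and 0.25 in the second set (log2 fold changes), so that the direction there turned.

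The disulfide isomerases Pdia3 and Pdia6 were higher in PM offspring over both sets, with a larger effect in the first set than in the second. Pdia3, at chr2:121413775-121438687 (plus), encodes ERp57, which works with calreticulin and calnexin on glycoproteins. In the second set it measured 146, 137 and 148 CPM in PM libraries 4 to 6, against 134 and 142 CPM in vehicle libraries 4 and 5. In the first set it measured 195, 203 and 220.0 CPM in PM libraries 1 to 3, against 114, 137 and 111 CPM in vehicle libraries 1 to 3. The groups overlapped in the second set and were apart in the first. Over both sets the mean was 175 ± 35.1 CPM in PM and 128 ± 14.1 CPM in vehicle, 1.37-fold higher, with a log2 fold change of 0.45 (SE 0.12, edgeR adjusted p = 0.00532). It was 0.06 in the second set (edgeR adjusted p = 0.642) and 0.77 in the first (edgeR adjusted p = 1.84e-06), a difference of -0.71 (SE 0.14, edgeR adjusted p = 0.00177).

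Pdia6, at chr12:17266545-17284770 (plus), encodes P5, an isomerase known to bind the ER Hsp70 BiP. In the second set it measured 74.7, 72.3 and 77.5 CPM in PM libraries 4 to 6, against 49.9 and 57.1 CPM in vehicle libraries 4 and 5. In the first set it measured 109.6, 117 and 108 CPM in PM libraries 1 to 3, against 51.8, 47.9 and 42.8 CPM in vehicle libraries 1 to 3. Every PM library was above every vehicle library in both sets. The mean was 93.1 ± 20.3 CPM in PM and 49.9 ± 5.27 CPM in vehicle, 1.86-fold higher, with a log2 fold change of 0.90 (SE 0.13, edgeR adjusted p = 3.04e-05). It was 0.48 in the second set (edgeR adjusted p = 0.000923) and 1.23 in the first (edgeR adjusted p = 7.15e-09), a difference of -0.75 (SE 0.14, edgeR adjusted p = 0.00114). Without the trends, Pdia3 was at 0.49 and Pdia6 at 0.73, both still called. Exons of Ddit3, on a transcript of 890 bases, overlap those of Mars by 68 bases and those of Gm4189 by 13, exons of Pdia3 overlap those of Catsper2 by 18 bases and exons of Pdia6 those of Atp6v1c2 by 50 bases. In each case the other gene is on the opposite strand, and reads there cannot be assigned to a strand because the strand setting of the counting was not given in the sources used here.

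Herpud1, at chr8:94386438-94395377 (plus), encodes HERP, a membrane protein of the ER-associated degradation complex that is known as a stress-induced gene. It ranged from 31.4 through 34.8 to 41.2 CPM in PM, against 29.0, 35.1, 30.3, 31.6 and 33.0 CPM in vehicle libraries 1 to 5. PM libraries 4 and 5 were above all vehicle libraries, and the other PM libraries lay within the vehicle range. The log2 fold change was 0.16 (SE 0.09, edgeR adjusted p = 0.11), with means of 35.96 ± 3.53 CPM in PM and 31.8 ± 2.38 CPM in vehicle. It passed on leaving out vehicle library 2 (edgeR adjusted p = 0.0380) or PM library 6 (edgeR adjusted p = 0.0313). After removal of the trends it was -0.33 (edgeR adjusted p = 0.00268), so its direction turned.

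**Figure D2:**
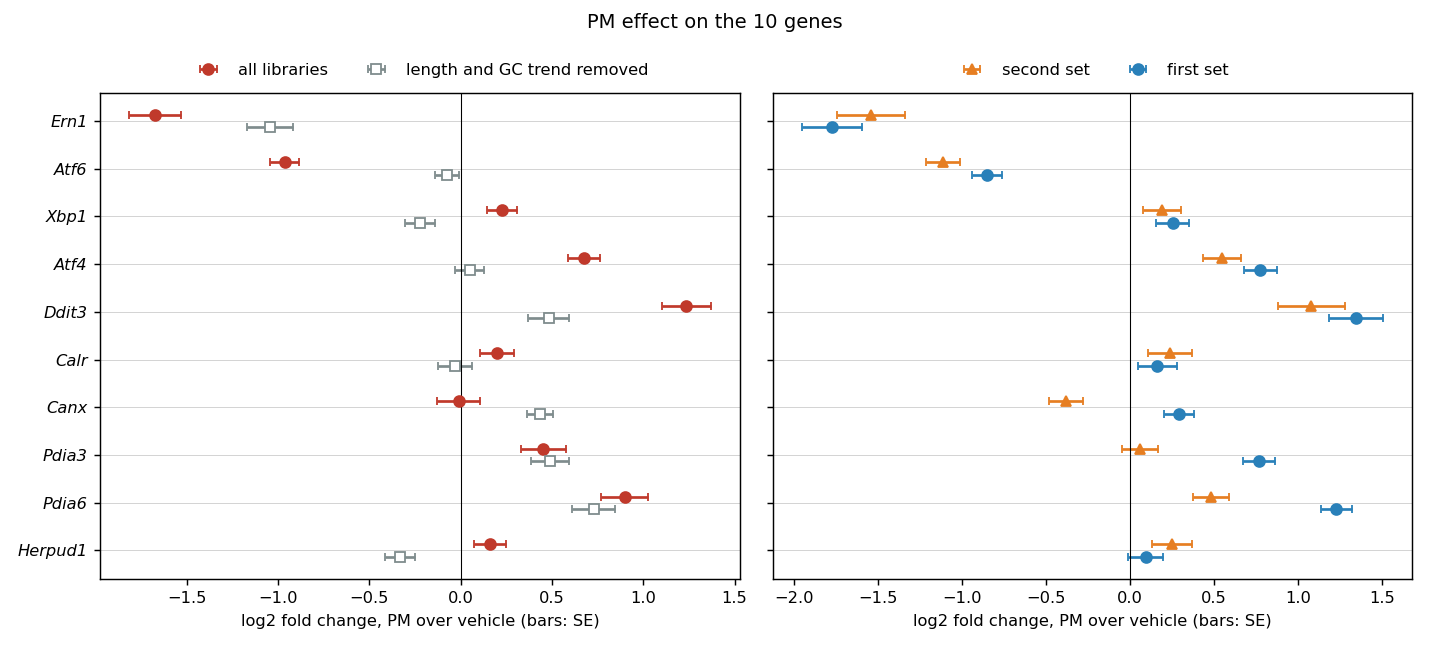
log2 fold change of PM against vehicle for each of the 10 genes, over all libraries with and without the length and GC trends removed (left), and in the second and first set (right); bars are standard errors. Canx, Pdia3 and Pdia6 have lower values in the second set than in the first, while Ddit3, Ern1 and Atf6 keep their direction in both sets.

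With the trends removed, 4 of the 10 were higher (Pdia6, Pdia3, Ddit3 and Canx) and 3 lower (Ern1, Herpud1 and Xbp1), against 29.8% and 33.9% of all genes tested (63.6% in either direction), and the median log2 fold change of the 10 was 0.01. Pdia3, Pdia6, Ddit3 and Ern1 kept call and direction over both sets with and without that step. Within the second set Ddit3 lost its call with the trends removed (log2 fold change 0.27, edgeR adjusted p = 0.179). Pdia3 was not called within the second set, either without that step (0.06, edgeR adjusted p = 0.642) or with it (0.16, edgeR adjusted p = 0.127). By set, 3 were higher and 3 lower in the second set, against 32.3% and 32.5% of all genes, and 6 were higher and 2 lower in the first, against 32.1% and 38.9%. The effect differed between sets for 3 of the 10, against 29.6% of all genes tested, and for all 3 it was lower in the second set, as for 12.1% of all genes.

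**Figure D3:**
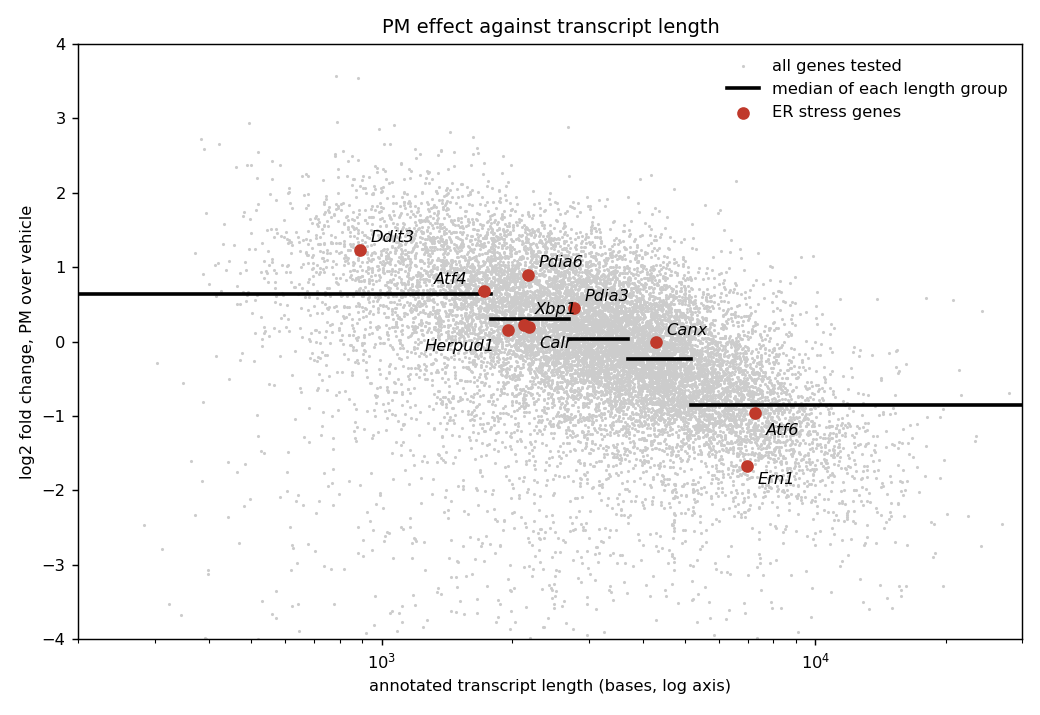
log2 fold change against transcript length in bases (log axis) for the genes tested, with the 10 genes in red and the median of each of 5 length groups as a black line; 196 of 14858 genes with a length fall outside the axes. Long transcripts lie lower, and Ern1 lies below most genes of its length whereas Pdia6, Ddit3 and Pdia3 lie above most.

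Per length, the 10 genes span a wide range of levels. Calr was highest, at 162 ± 20.4 CPM per kb in PM and 140.2 ± 7.22 CPM per kb in vehicle. Canx followed at 83.4 and 84.0 CPM per kb, then Atf4 at 70.3 and 44.1, Pdia3 at 63.1 and 46.0, and Pdia6 at 42.8 and 22.9 CPM per kb (means in PM, then vehicle). Further down were Xbp1 at 28.8 and 24.5, Ddit3 at 24.2 and 10.3, Herpud1 at 18.4 and 16.3, and Atf6 at 9.499 and 18.8 CPM per kb. Ern1 was lowest, at 0.648 and 2.03 CPM per kb. In PM libraries the ranges of Canx, Atf4 and Pdia3 overlapped, as did those of Pdia3 with Pdia6, Xbp1 with Ddit3 and Ddit3 with Herpud1. In vehicle libraries Pdia3 overlapped with Atf4, Xbp1 with Pdia6, Pdia6 with Atf6, and Atf6 with Herpud1. Together the 10 genes took 0.12 to 0.14% of gene counts in PM libraries and 0.11 to 0.12% in vehicle libraries.

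The other genes of the response were taken from 8 lists chosen with earlier results of these data known. Their counts stand against 32.7% higher and 36.4% lower over all genes tested. With the trends removed those shares were 29.8% and 33.9%. Sensors and their transcription factors, 12 genes with 5 of the members among them, held 5 higher and 6 lower, with a median of -0.27. PERK itself, Eif2ak3 (named after its values were seen), was at 16.5 ± 1.46 CPM in PM and 21.9 ± 0.672 CPM in vehicle, 1.32-fold lower (edgeR adjusted p = 0.00112), so that genes for all 3 sensors were lower. Of these, Atf6 lost its call with the trends removed. Eif2ak3 lost its call when a replicate block, which leaves out PM library 6, was used as well (edgeR adjusted p = 0.117). Creb3 (2.62-fold) and Atf6b (1.70-fold), which encode related membrane-bound factors, were higher, while Creb3l2, of the same family, was 4.57-fold lower. Mbtps2, a protease that cleaves ATF6, was 1.78-fold lower, whereas Mbtps1, a further protease of the list, did not pass (log2 fold change -0.13, edgeR adjusted p = 0.114). Atf6b lost its call with the trends removed, at a log2 fold change of 0.09 (edgeR adjusted p = 0.434).

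In the PERK, ATF4 and CHOP branch 15 of 25 genes were higher and 2 lower, with a median log2 fold change of 0.54. Atf5 (3.30-fold), a target of ATF4, and Phgdh (3.28-fold), Ddit4 (2.85-fold) and Sars (1.72-fold), of serine synthesis, mTOR inhibition and tRNA charging, were higher in every PM library than in any vehicle library. The same held for 24.3% of all genes tested. The 2 lower genes were Eif2ak3 and Slc7a11 (2.30-fold), and the 8 that did not pass included Asns, Chac1, Sesn2, Slc3a2 and Shmt2. In the fit without the trends, 10 of these 25 were higher and 5 lower, the latter being Eif2ak3, Chac1, Sesn2, Slc3a2 and Shmt2. Slc7a11 then lost its call, at a log2 fold change of 0.08 (edgeR adjusted p = 0.701). Trib3, a CHOP target, had 42 counts in all PM libraries and 8 in all vehicle libraries and was not tested. In the IRE1 and XBP1 branch 8 of 18 genes were higher and 8 lower, with the translocon genes Sec61g (4.10-fold) and Sec61b (2.64-fold) and the IRE1 adaptor Traf2 (2.29-fold) higher, and the XBP1 target Dnajb9 1.497-fold lower. Dnajb11, of the same branch (named after its values were seen), was 1.54-fold higher (edgeR adjusted p = 0.0001). Both kept their calls with the trends removed, Dnajb9 at a log2 fold change of -0.42 and Dnajb11 at 0.43.

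Among folding factors, 9 of 15 genes of the ER Hsp70 and Hsp90 system were higher and 2 lower, with a median of 0.63. Hspa5, which encodes BiP, was at 195 ± 48.6 CPM in PM and 113 ± 17.0 CPM in vehicle, 1.71-fold higher (edgeR adjusted p = 0.000439), at log2 0.29 in the second set and 1.17 in the first. Hsp90b1, the ER Hsp90 (GRP94), had a log2 fold change of 0.27 (edgeR adjusted p = 0.103), at -0.18 in the second set and 0.63 in the first, and passed with the trends removed (0.40, edgeR adjusted p = 0.00266). Ppib (2.38-fold), Sdf2 (2.34-fold) and Creld2 (1.89-fold), further folding factors of the ER, were higher, of which Creld2 lost its call with the trends removed, at a log2 fold change of 0.18 (edgeR adjusted p = 0.133). In the lectin chaperone cycle 5 of 11 were higher and 3 lower, with Mcfd2 (2.29-fold), of a cargo receptor, and Man1b1 (1.896-fold), a mannosidase, higher and the folding sensors Uggt1 (2.02-fold) and Uggt2 (3.67-fold) lower. The call of Uggt1 was lost with the trends removed, at -0.04 (edgeR adjusted p = 0.67). Among disulfide isomerases and oxidases 9 of 18 were higher and 6 lower, with Erp29 (3.00-fold) and P4hb (1.66-fold) higher, and Ero1l, the oxidase that recharges them, 1.81-fold and Erp44 1.69-fold lower.

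In ER-associated degradation 8 of 22 genes were higher and 10 lower, against 32.7% and 36.4% of all genes tested, with a median of 0.01. Vcp (1.78-fold), the ATPase that pulls substrates out, and Derl1 (1.62-fold) were higher. Sel1l, partner of the ubiquitin ligase, was 1.87-fold lower, as were Herpud2 (1.66-fold), the paralogue of Herpud1, and Erlec1 (1.595-fold), a lectin. Of 12 cell death genes linked to ER stress 5 were higher and 3 lower, with Bax (3.24-fold), Bbc3 (2.45-fold) and Bcap31 (1.87-fold), which promote death, and Bcl2l1 (1.598-fold), which opposes it, all higher. Bcl2l1 lost its call with the trends removed, at a log2 fold change of 0.14 (edgeR adjusted p = 0.122). With length and GC trends removed, the counts of higher and lower genes were 2 and 6 for sensors and their factors, 5 and 7 for the IRE1 and XBP1 branch, 6 and 3 for the ER Hsp70 and Hsp90 system and 5 and 3 for the lectin chaperone cycle. They were 8 and 4 for disulfide isomerases and oxidases, 7 and 8 for ER-associated degradation and 5 and 2 for the cell death genes. The list medians then ran only from -0.17 for sensors and their factors to 0.20 for the cell death genes. Both the ER Hsp70 and Hsp90 system and the PERK, ATF4 and CHOP branch were at 0.19.

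**Figure D4:**
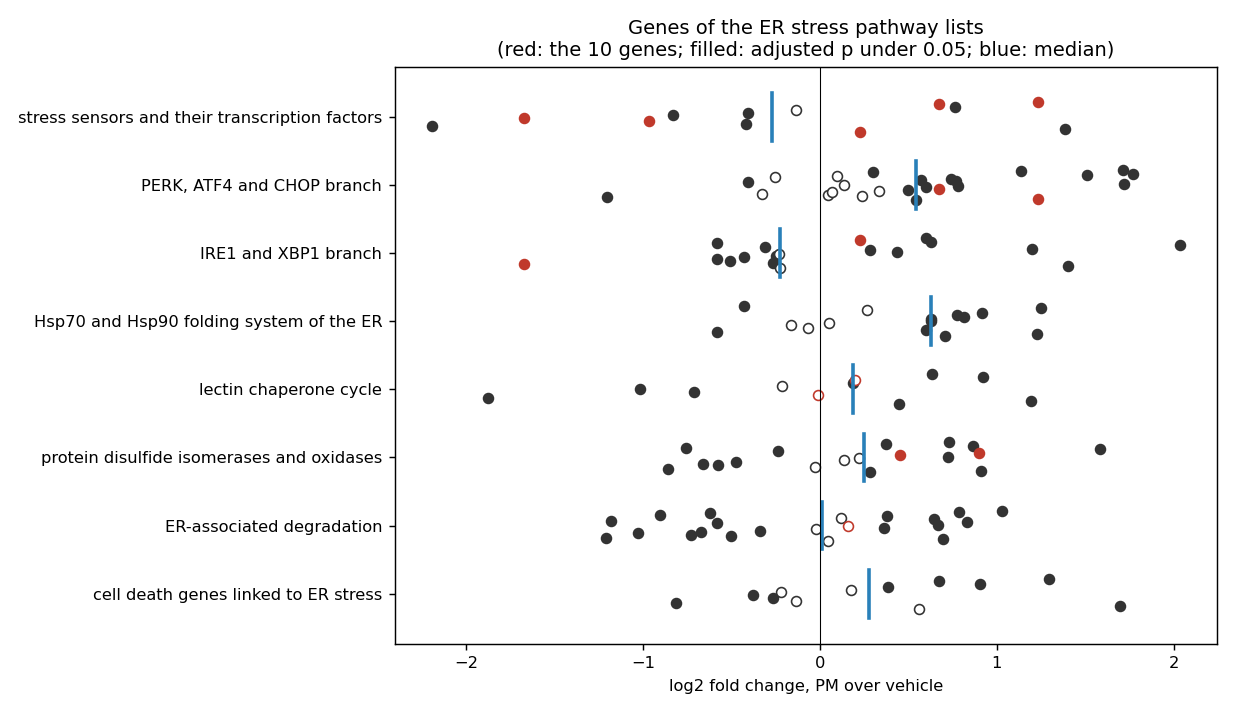
log2 fold change of PM against vehicle for each tested gene of the 8 lists, one row a list; the 10 genes are red, filled points passed the test (adjusted p under 0.05) and blue lines are list medians. With the length and GC trends left in, medians run from -0.27 for sensors and their factors to 0.63 for the ER Hsp70 and Hsp90 system, and each list has genes on both sides of 0.

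Markers of other cells moved with the groups. Of the marker lists, 8 of 10 microglia, 6 of 10 endothelial and 6 of 10 oligodendrocyte genes were higher and 0 lower, whereas of 10 astrocyte genes 5 were higher and 3 lower. Over all genes tested, 32.7% were higher and 36.4% lower. Summed levels were 330.2 to 501 CPM in PM and 245 to 269 CPM in vehicle for microglia, 229 to 423 and 176 to 202 CPM for endothelium, 4360 to 9907 and 4030 to 5110 CPM for oligodendrocytes, and 3789 to 6676 and 7337 to 7755 CPM for astrocytes (PM, then vehicle). Much of the astrocyte sum was Slc1a2, at 2607 CPM in PM and 5757 CPM in vehicle on average. Its call as lower was lost with the trends removed (log2 fold change 0.18, edgeR adjusted p = 0.219). In that fit, higher and lower genes were 8 and 0 for microglia, 5 and 0 for endothelium, 4 and 1 for oligodendrocytes and 6 and 1 for astrocytes. The shares over all genes tested were then 29.8% and 33.9%. Choroid plexus markers summed to 37.4 to 2532 CPM in PM and 76.7 to 1306 CPM in vehicle, with Aqp1 the one marker at 0 in some library and 1 of 9 called, lower. Their part in the changes of the 10 genes was not tested.

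Across the 11 libraries the gene of the lists most like each of the 10 was found by Pearson's r of log2 CPM, among 112 candidates, as a description that the groups and sets themselves shape. Ddit3 and Atf4 were most like Atf5 (r = 0.983 and 0.975), Pdia3 like Eif2s1, which encodes eIF2α (0.981), and Pdia6 like Derl1 (0.98). Ern1 was most like Creb3l2 (0.971), Atf6 like Mbtps2 (0.966) and Canx like Tmx3 (0.95). Within group and set, r was 0.96 for Pdia3 and Eif2s1 but 0.0148 for Ern1 and Creb3l2. Calr was most like Aars (0.914), Xbp1 like Txndc12 (0.862) and Herpud1 like Edem2 (0.852).

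Of the 4 genes with an ER stress response element in the window, Pdia6 was higher and Calr, Canx and Herpud1 did not pass over all libraries. Among all genes with the first motif, 17 were tested, of which 4 were higher, 6 lower and 7 not passed, with a median log2 fold change of 0.00. Among those with the second, 8 were tested, of which 4 were higher, 1 lower and 3 not passed, with a median of 0.26. Over all genes tested, 32.7% were higher and 36.4% lower, with a median of -0.04. With the trends removed, Pdia6 and Canx were higher, Herpud1 was lower and Calr did not pass. Genes with the first motif were then 6 higher and 6 lower, with a median of 0.185. Those with the second were 4 higher and 2 lower, with a median of 0.259. Over all genes tested that fit gave 29.8% higher and 33.9% lower, with a median of -0.05.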

How the data were processed

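Per the submitters' processing notes, FastQC 0.11.9, Trimmomatic 0.36, STAR, SAMtools 1.9, Picard 2.9.2 and HTSeq 0.9.1 were used, and the builds named are mm10 and hg19; a strand setting was not given in the sources used here. The labels describe removal of ribosomal RNA, while their molecule field says polyA RNA. The authors deposited 1 raw count per gene symbol and library, and HTSeq's summary rows (no feature, ambiguous, not unique) were left out of library sizes and tests. From these counts, edgeR 4.0.16 (R 4.3.3) gave TMM-scaled CPM, and its quasi-likelihood test, with deposit set as covariate, ran on the 14982 genes that passed filterByExpr at a minimum count of 10. Adjusted p-values are Benjamini-Hochberg over all of them, with a threshold of 0.05. PM effects by set came from a fit with an interaction. Transcript length and GC content came from GENCODE on GRCm38, with 98.5% of symbols matched, and a spline trend of each library on both was removed as an offset where stated. The scripts were tested on simulated data. The members and lists were chosen with earlier results of these data known. Besides the 10 genes, the text names up to 4 genes of smallest p per list, Hspa5, Hsp90b1 and the gene most like each member. Eif2ak3, Syvn1, Derl3 and Dnajb11 were added to the alternatives after their values were seen. Trib3, Slc7a11, Asns, Chac1, Sesn2, Slc3a2, Shmt2, Mbtps1 and Slc1a2 were added to the text only, also after their values were seen. Alternatives were DESeq2 size factors, the DESeq2 1.42.0 Wald test, no filter, no set covariate, a replicate block, each set alone, leaving out each library and, chosen after seeing the data, leaving out 3 libraries with high Ttr. Counts limit the precision for low genes such as Ern1.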

Additional observations from a re-analysis of the deposited data

Results flagged for a closer look

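The PM effect differed between deposit sets, by the interaction in edgeR, for 16 of the 53 genes compared this way (the 10, those named by rule and 4 more), 30.2%, which is near the 29.6% of all genes tested that differed. Values here are second minus first set on the log2 scale. The 10 ER stress genes contributed 3 of them, Canx at -0.67, Pdia3 at -0.71 and Pdia6 at -0.75.

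Of the folding factors, Hspa5 was at -0.88, Hsp90b1 at -0.81 and Tmx3, a membrane-bound disulfide isomerase, at -0.79, while Uggt2, a folding sensor, was at 1.42. Mcfd2, of a cargo receptor, was at -0.42. Of the PERK branch, Phgdh was at -0.64, Ddit4 at -0.64 and Eif2s1 at -0.62. Atf6b was at 0.93. Of ER-associated degradation, Vcp was at -0.44, Derl1 at -0.53, Edem2 at 0.61 and Syvn1, the ubiquitin ligase (named after its values were seen), at 1.04. In the first set the share of reads that overlapped no annotated feature was 20.4% in PM and 61.3% in vehicle libraries, and in the second set 31.7% in PM and 61.5% in vehicle libraries. Xist also stood differently by set. In the first set it was at most 3.17 CPM in vehicle libraries and 16.0, 0.338 and 187 CPM in PM libraries 1 to 3. In the second set it was 2465 and 2279 CPM in vehicle libraries 4 and 5 and 0.712, 0.631 and 949 CPM in PM libraries 4 to 6. The part of either in these differences was not tested.

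Reads outside the gene counts also differed between groups. Reads that fell on more than 1 gene averaged 1.30% in PM libraries and 0.555% in vehicle libraries, and reads aligned to more than 1 place averaged 7.98% in PM libraries and 4.48% in vehicle libraries.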

How the results depend on the processing

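The calls of Ddit3, Ern1 and Pdia6 over both sets held under every alternative tried; that of Pdia3 held under all but the second set alone, and those of Atf4 and Atf6 under all but the 2 that removed length and GC trends. Calr also passed with DESeq2 size factors, DESeq2's test and no filter, and Herpud1 with no filter. The median of all genes moved by at most 0.07 under any of them. Leaving out 1 library at a time gave 4 to 6 of the 10 genes higher and 2 lower, 4657 to 5096 genes higher and 5021 to 5435 lower, 3 to 4 of the 10 differing between sets, and 2400 (without vehicle replicate 5) to 5612 genes differing between sets, against 4428 with all libraries.

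Canx, near 0, turned to 0.016 with DESeq2 size factors and 0.016 with DESeq2's test, 0.081 with no filter, 0.026 without the high-Ttr libraries and 0.39 in the first set alone, and ran from -0.067 to 0.067 on leaving out libraries. Tmx3 turned to 0.00089 with DESeq2 size factors, 0.066 with no filter, 0.10 without the high-Ttr libraries and 0.42 in the first set alone, and ran from -0.13 to 0.11. The difference between sets turned to -0.047 for Calr with no filter and, on leaving out libraries, ran from -0.075 to 0.19 for Calr and -0.18 to 0.019 for Xbp1. Hsp90b1 was at -0.17 in the second set alone.

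With length and GC trends removed, Xbp1 was at -0.22 (second set -0.32, first -0.15), Calr at -0.033 (first -0.074), Herpud1 at -0.33 (second -0.29, first -0.37), Canx at 0.43 (second 0.25), Tmx3 at 0.72, Txndc12 at -0.045, Edem2 at -0.053 and Atf4 at -0.13 in the second set. Calls were lost for Atf4, Atf6, Atf6b, Creld2, Uggt1, Bcl2l1 and Edem2, and Hsp90b1 then passed. The cause was not tested.

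Deviations of same-numbered libraries from the mean of their group and set correlated at -0.176 to -0.00501, so no pairing by replicate number was seen. With so few libraries to a group and set, these values cannot exclude it. The replicate block used only replicate numbers present in both groups, so PM library 6 was left out. With the replicate block, the number of genes higher in PM was 4619 and the number of genes lower in PM was 4590, Canx was at 0.053 and Tmx3 at 0.045. All libraries without the block gave 4904 higher and 5450 lower, and leaving out PM library 6 alone gave 5096 and 5021. The block with the trends removed left 4 of the 10 higher and 1 lower, with Xbp1 at -0.17, Calr -0.020, Canx 0.48, Herpud1 -0.26, Uggt1 0.013, Txndc12 -0.028 and Tmx3 0.78; Eif2ak3, Mbtps2 and Sel1l then also lost their calls.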
